A study of Mus musculus with 12 samples.

Results

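The proteasome is the barrel-shaped protease that degrades proteins tagged with ubiquitin. Its 20S core is built of rings of alpha subunits (Psma genes), which gate the entrance, and rings of beta subunits (Psmb genes), of which Psmb5, Psmb6 and Psmb7 carry the proteolytic sites. The 19S cap holds ATPases that unfold the substrate (Psmc genes) and non-ATPase subunits that bind and strip ubiquitin (Psmd genes). In cells exposed to interferon, Psmb8, Psmb9 and Psmb10 replace the proteolytic subunits to form the immunoproteasome, and the activators PA28 (Psme1 and Psme2, or Psme3) and PA200 (Psme4) can take the place of the cap. In neurons the proteasome works beside the lysosome, the compartment that fails in the mucopolysaccharidoses.

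Members were the probes whose gene name on the array began with Psm, a letter from a to g and a digit, which gave 68 of 41174 probes and 44 of 27573 genes. Among these genes, Psmc3ip is a meiotic recombination factor that shares only the name, so 43 proteasome genes on 66 probes remained. RNA came from neurons cut by laser out of 2 regions of the entorhinal cortex, medial (MEC) and lateral (LEC), in female C57BL/6 mice aged 2 months. Mutants were Naglu-/-, a model of Sanfilippo syndrome type B in which a lysosomal enzyme of heparan sulfate breakdown is missing, and controls were their Naglu+/- littermates, which carry 1 null allele themselves. A pair set 1 mutant sample against 1 control sample on 2 dual-dye arrays with exchanged dyes, and 3 pairs per region made 12 arrays. Whether same-numbered pairs of both regions share mice is not stated in the labels. The p-values measure only the spread between these pairs.

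Some facts of the whole series bear on every value. The scanner files and the authors' value table disagree on which LEC array belongs to which LEC sample. The sample labels and the value table disagree on which dye held the mutant in replicate 2 of both regions. The value table was followed here, the direction of replicate 2 is not settled, and values with replicate 2 turned as labelled are given for the sign counts and for several genes. Median raw signals were 67 to 77.9 in MEC and 79.3 to 92.5 in LEC for the Cy3 dye, and 44.4 to 50.6 in MEC and 49.3 to 54.9 in LEC for Cy5. The deleted gene gives no check of the labels, since its better probe was well above background in 12 of 24 readings, 3 of 6 in each region and genotype, and its other probe in 0. Of 6 excitatory neuron markers 3 were measured (Camk2a, Neurod6 and Nrgn), while Slc17a7 and Tbr1 were among those not measured; all 6 inhibitory markers and 10 of 13 microglial markers were measured.

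Promoter sequences are shown for 4 members, credited to RefSeq (assembly GRCm38.p6), as the 250 bases before the annotated start, 5′ to 3′ on the gene's strand. Psmb4 is the member of smallest p between mutant and control, Psma2 and Psmd11 had the smallest p among the members higher in MEC than in LEC, and Psmd12 holds the motif that Nfe2l1 and Nfe2l2, activators of proteasome genes, are known to bind. Capitals mark the antioxidant response element core (TGACNNNGC) and the CCAAT box, searched on both strands.
Psmb4, chr3:94886959-94887208, minus strand: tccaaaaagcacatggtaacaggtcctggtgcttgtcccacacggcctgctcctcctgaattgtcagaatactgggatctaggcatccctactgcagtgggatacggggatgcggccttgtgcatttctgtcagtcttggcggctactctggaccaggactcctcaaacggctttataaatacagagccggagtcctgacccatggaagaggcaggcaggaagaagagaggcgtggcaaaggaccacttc
Psma2, chr13:14612992-14613241, plus strand: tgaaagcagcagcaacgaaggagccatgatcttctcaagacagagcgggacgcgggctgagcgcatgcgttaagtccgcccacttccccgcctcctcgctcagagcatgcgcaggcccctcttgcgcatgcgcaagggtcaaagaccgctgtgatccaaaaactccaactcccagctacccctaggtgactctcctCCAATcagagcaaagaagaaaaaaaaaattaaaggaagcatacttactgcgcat
Psmd11, chr11:80428365-80428614, plus strand: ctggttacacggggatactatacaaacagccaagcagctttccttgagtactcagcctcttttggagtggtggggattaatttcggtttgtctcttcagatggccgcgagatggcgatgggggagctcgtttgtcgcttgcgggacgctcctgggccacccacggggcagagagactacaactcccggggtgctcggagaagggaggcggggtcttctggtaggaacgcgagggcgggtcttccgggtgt
Psmd12, chr11:107479278-107479527, plus strand: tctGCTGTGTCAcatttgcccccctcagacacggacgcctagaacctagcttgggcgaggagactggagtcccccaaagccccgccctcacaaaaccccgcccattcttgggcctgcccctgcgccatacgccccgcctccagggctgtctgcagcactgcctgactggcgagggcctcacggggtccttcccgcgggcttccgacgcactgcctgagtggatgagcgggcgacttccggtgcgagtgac
The element core lay 247 to 239 bases before the start of Psmd12, where it reads on the opposite strand, and the CCAAT box lay 54 to 50 bases before the start of Psma2. These 250 bases of Psmb4 and Psmd11 held neither. Promoters of these 250 bases and the 50 after the start were given for 36 of the 43 members. The element core occurred in 6 of these 36 (16.7%), those of Psmb5, Psmb6, Psmc6, Psmd9, Psmd12 and Psme4, against 3781 of all 27025 genes with a promoter (14%). The CCAAT box occurred in 13 of 36 (36.1%) against 41.1% of all genes. A match of letters is a description and shows no binding.

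Of the 43 members, 33 were measured, meaning that a probe stood well above background in 4 or more of 6 readings for some region and genotype. In the 20S core these were Psma1, Psma2, Psma5, Psma6 and Psma7 of the alpha ring and all of Psmb1 to Psmb7 of the beta ring. In the 19S cap they were the ATPases Psmc1, Psmc2, Psmc4, Psmc5 and Psmc6, the non-ATPases Psmd1, Psmd2, Psmd3, Psmd4, Psmd6, Psmd7, Psmd8, Psmd11, Psmd12 and Psmd14, and the cap's assembly factor Psmd5. All 4 activator genes were measured, and Psmb10 was the one measured subunit of the immunoproteasome. The 10 others had probes above background in 0 to 12 of 24 readings and carry only that bound. They are the alpha subunits Psma3, Psma4 and Psma8 (the last known from testis), the immunoproteasome subunits Psmb8 and Psmb9, the cap genes Psmc3, Psmd9, Psmd10 and Psmd13, and the inhibitor Psmf1. Among the 33, 31 met the minimum in every region and genotype, and 23 were above background in all 24 readings; the exceptions to the first count were Psma6 and Psmb7. No probe was saturated.

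No proteasome gene passed the test between mutant and control. The limma test with Benjamini-Hochberg adjustment over 10900 genes called 0 of the 33 members in MEC, in LEC, in the average over both regions and in the difference between regions, and it called 0% of all genes in each of these. At an unadjusted p under 0.05 stood 1 of 33 members in MEC, 0 in LEC, 1 in the average and 1 in the difference, against 1.14%, 1.56%, 2.24% and 0.541% of all genes. The largest mean effect of a member in either region was 0.26 in size on the log2 scale, and the standard error of a member's regional effect ranged from 0.064 to 0.20 (median 0.094, n = 3 pairs). In single pairs the log2 ratios of mutant over control ran from −0.52 to 0.54, and 28 of the 198 values exceeded 0.3 in size. A regional change of the size of these standard errors could not be detected with 3 pairs. Larger ones also went uncalled, among them −0.26 for Psmb4 in MEC and an averaged effect of 1.78 for the lysozyme gene Lyz2. The 0 calls therefore do not show that proteasome genes were unchanged.

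**Figure D1:**
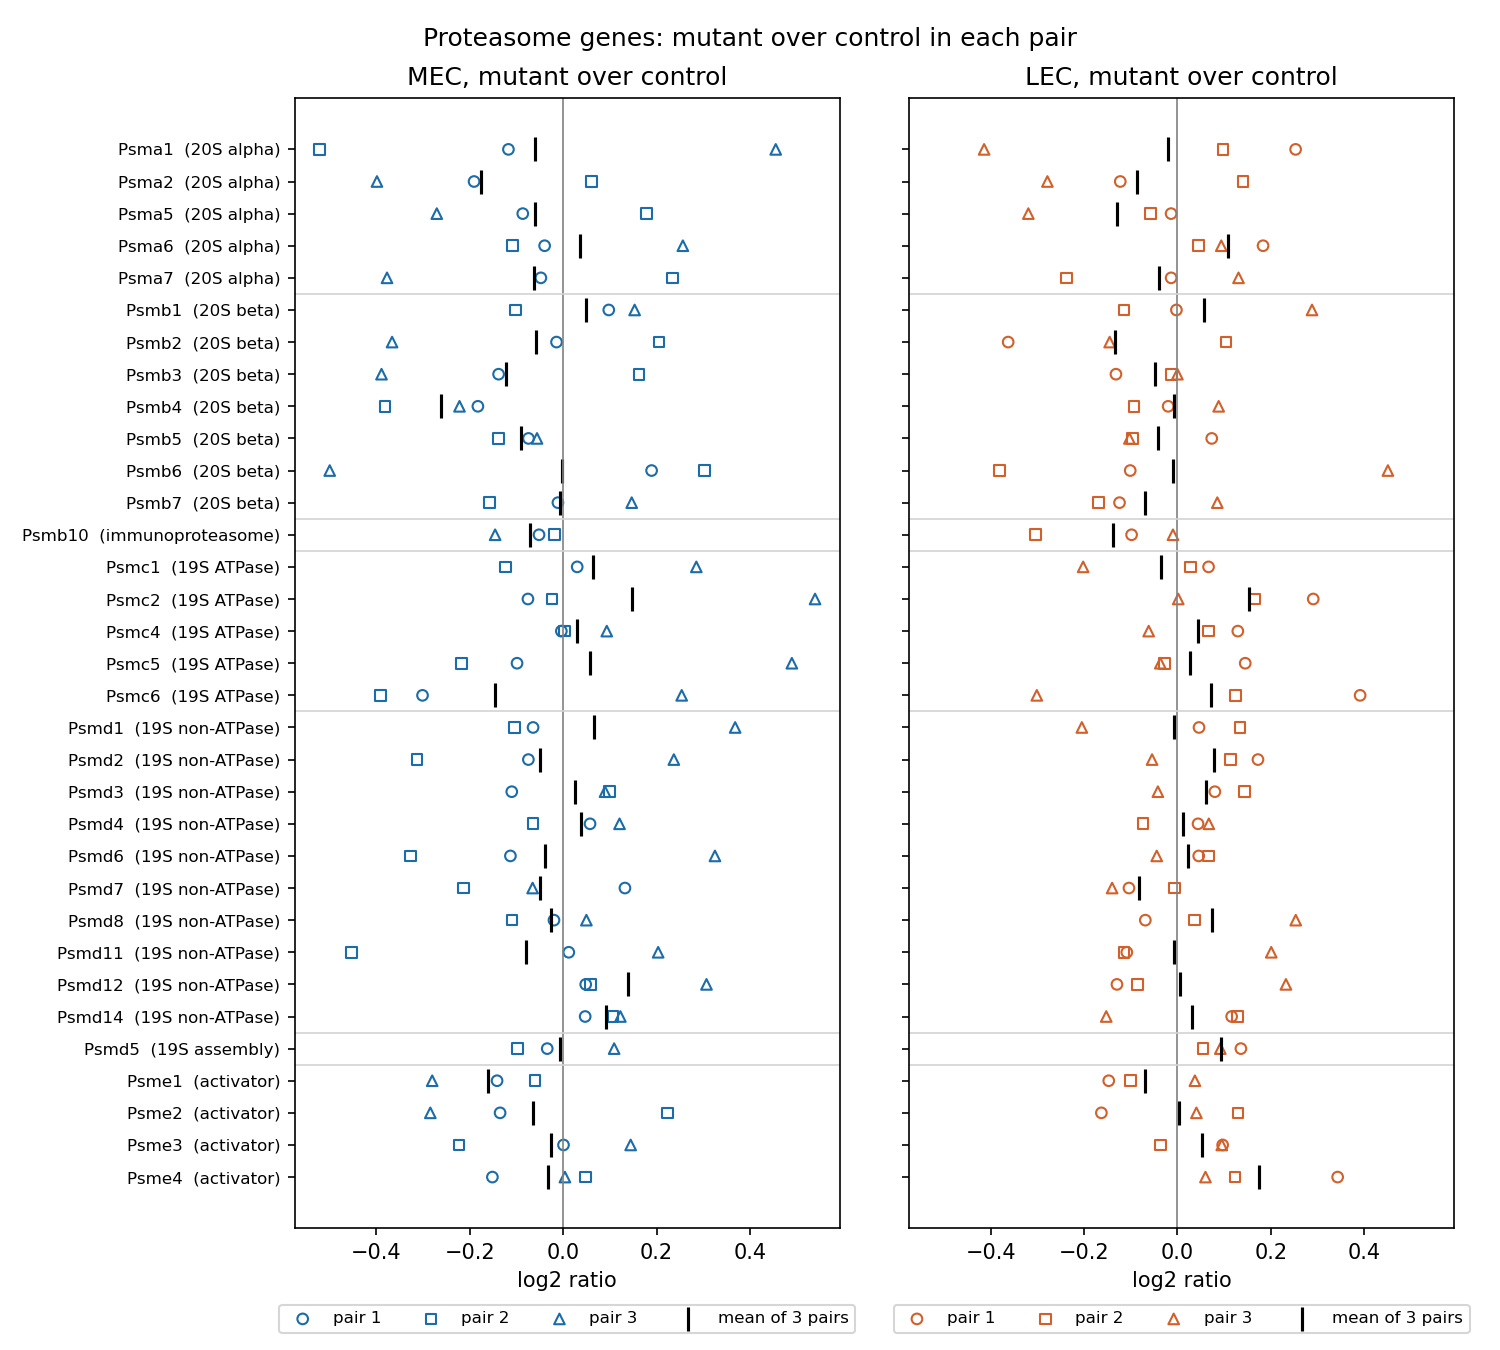
Log2 ratio of mutant over control (horizontal axis) of the 33 measured proteasome genes, in MEC (left) and LEC (right); open symbols are pairs 1, 2 and 3, black ticks their mean, and grey lines part the subcomplexes. Most genes have pairs on both sides of 0, and Psmb10 alone lies below 0 in all 6 pairs in the direction of the value table.

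In the 20S core, most genes had small negative mean ratios, a direction that turned when the dyes were only median-centred in place of loess (2 of 12 below 0 in MEC and 3 of 12 in LEC). Of the 12 measured core genes, 10 lay below 0 in MEC and 10 in LEC, against 5761 and 5187 of all 10900 genes. Their medians were −0.06 in MEC and −0.041 in LEC, while over all genes the medians were −0.0044 and 0.0047. With dyes only median-centred, the LEC median over all genes also moved, to 0.033. Psmb4, a structural beta subunit, had the smallest p of all members: its log2 ratios were −0.18, −0.38 and −0.22 in the MEC pairs and −0.02, −0.093 and 0.088 in the LEC pairs. Its log2 intensities were 9.41, 9.15 and 9.31 in the mutant MEC channels, against 9.60, 9.53 and 9.53 in the control MEC channels, so the MEC groups did not overlap. Psmb4 was picked for its small p in these same values, so this lack of overlap is no further support. The MEC effect was −0.26 ± 0.07 (SE; limma unadjusted p = 0.00718, adjusted p = 1), and it differed from the LEC effect by −0.25 ± 0.098 (SE; unadjusted p = 0.0369, adjusted p = 1). With replicate 2 turned as labelled the MEC effect of Psmb4 was −0.0076, because the largest of its 3 MEC ratios then changes sign. The MEC groups then overlapped.

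Psma2, an alpha subunit of the gate, had ratios of −0.19, 0.061 and −0.40 in MEC and −0.12, 0.14 and −0.28 in LEC. Replicate 2 stood against the other pairs in both regions, so with replicate 2 turned Psma2 lay below 0 in all 6 pairs, with an averaged effect of −0.20 ± 0.053 (SE; limma unadjusted p = 0.00686, adjusted p = 0.279). As the table gives the direction, the averaged effect was −0.13 ± 0.079 (SE; adjusted p = 1). Psma5, also of the alpha ring, had ratios of −0.086, 0.18 and −0.27 in MEC and −0.014, −0.058 and −0.32 in LEC. Psmb2, a beta subunit, had −0.014, 0.21 and −0.37 in MEC and −0.36, 0.10 and −0.15 in LEC. Both genes had a negative mean in each region, and in neither did the MEC pairs share a sign. Turned as labelled, replicate 2 put the MEC pairs of Psma5 all below 0, and Psmb2 was below 0 in all 6 pairs, with an averaged effect of −0.20 ± 0.059 (SE; limma unadjusted p = 0.0111, adjusted p = 0.299). Psma6, one of the 2 core genes above 0, had −0.04, −0.11 and 0.26 in MEC and 0.18, 0.045 and 0.094 in LEC, so its LEC pairs shared a sign.

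None of the proteolytic subunits passed the test between genotypes. Psmb5, which cuts after hydrophobic residues, had ratios of −0.074, −0.14 and −0.056 in MEC and 0.074, −0.096 and −0.10 in LEC. Psmb6, which cuts after acidic residues, had a mean of −0.0024 in MEC and −0.01 in LEC, but its pairs spread widely, from −0.50 to 0.30 in MEC and from −0.38 to 0.45 in LEC. Psmb7, which cuts after basic residues, had means of −0.0074 and −0.069 and was above background in 9 of 24 readings. Psmb10, the immunoproteasome's counterpart of Psmb7, had ratios of −0.052, −0.019 and −0.15 in MEC and −0.098, −0.30 and −0.0095 in LEC. It was the 1 member of 33 with the same sign in all 6 pairs, against 1.86% of all genes, and its averaged effect was −0.10 ± 0.053 (SE; limma unadjusted p = 0.0888, adjusted p = 1). With replicate 2 turned as labelled its LEC effect was 0.065 and its averaged effect 0.0029.

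In the 19S cap the mean ratios lay more often above 0. Of 15 measured cap subunits, 9 were above 0 in MEC and 11 in LEC, against 5139 and 5713 of all 10900 genes, with medians of 0.031 and 0.027. Without MEC replicate 3, however, 2 of 15 were above 0 in MEC. Psmc2, an ATPase, had ratios of −0.075, −0.024 and 0.54 in MEC and 0.29, 0.17 and 0.0018 in LEC, so its MEC mean of 0.15 came from 1 pair. Another ATPase, Psmc1, had 0.03, −0.12 and 0.29 in MEC and 0.067, 0.028 and −0.20 in LEC. Neither gene kept 1 sign over the pairs of MEC; with replicate 2 turned, those of Psmc1 were all above 0 (effect 0.15). Psmd12, a subunit of the cap's lid, had 0.048, 0.059 and 0.31 in MEC and −0.13, −0.085 and 0.23 in LEC, and its MEC pairs were all above 0. A second probe of Psmd12, dimmer than the first, gave a mean of −0.042 in MEC. With replicate 2 turned, the MEC pairs of Psmd12 necessarily had both signs, and their mean was 0.099. Psmd14, the deubiquitinase that strips ubiquitin chains as substrates enter, had 0.047, 0.11 and 0.12 in MEC and 0.12, 0.13 and −0.15 in LEC. Psmd14 had MEC pairs that lay close together, and its MEC effect of 0.092 ± 0.074 (SE) had an unadjusted p of 0.257 in limma. Turning replicate 2 necessarily gave pairs of both signs, with an effect of 0.021. The assembly factor Psmd5 had −0.034, −0.097 and 0.11 in MEC and 0.14, 0.055 and 0.092 in LEC, where its pairs were all above 0.

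The activators were measured in full. Psme1, an interferon-inducible PA28 subunit, had ratios of −0.14, −0.06 and −0.28 in MEC and −0.15, −0.10 and 0.037 in LEC. Its MEC effect was −0.16 ± 0.071 (SE; limma unadjusted p = 0.0586, adjusted p = 1), with all 3 MEC pairs below 0. The MEC effect was −0.12, with pairs necessarily of both signs, when replicate 2 was turned. Its partner Psme2 had −0.14, 0.22 and −0.28 in MEC and −0.16, 0.13 and 0.041 in LEC. Psme3, the nuclear form of PA28, had 0.00074, −0.22 and 0.14 in MEC and 0.097, −0.036 and 0.095 in LEC. Neither Psme2 nor Psme3 had 1 sign over the pairs of either region. With replicate 2 turned, Psme2 was below 0 in all 3 MEC pairs, with an effect of −0.21 ± 0.062 (SE; limma unadjusted p = 0.0103, adjusted p = 0.429), the smallest p of any member in MEC in that direction. A second, dimmer probe of Psme2 had −0.38, −0.15 and 0.085 in MEC, which have both signs with replicate 2 turned. Psme3 was then above 0 in all 6 pairs, with an averaged effect of 0.099. Psme4, the nuclear activator PA200, had −0.15, 0.048 and 0.0038 in MEC and 0.34, 0.12 and 0.06 in LEC. Its LEC effect of 0.18 ± 0.079 (SE; unadjusted p = 0.0609, adjusted p = 1) was the smallest p of any member in LEC. It was 0.093 with replicate 2 turned (limma unadjusted p = 0.329, adjusted p = 0.771), and Psmb2 had the smallest p in LEC.

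Counted by sign alone, 6 of 33 members had the same sign in all 3 MEC pairs (Psmb4, Psmb5, Psmb10, Psmd12, Psmd14 and Psme1), against 14.6% of all genes. In LEC 8 of 33 did (Psma5, Psma6, Psmb3, Psmb10, Psmc2, Psmd5, Psmd7 and Psme4), against 17.3% of all genes. These lists rest on the direction of replicate 2. With it turned, 11 of 33 members had 1 sign in MEC, against 36.4% of all genes, and 4 of 33 in LEC, against 31%. In all 6 pairs it was then 4 of 33 (Psma2, Psmb2, Psmd4 and Psme3), against 7.65% of all genes. A gene with 1 sign in all 3 pairs of a region must show both signs once 1 pair is turned. The lists of a region in the 2 directions therefore cannot share a member. Of 7 members with a further measured probe, 4 had probes of opposite sign in MEC and 7 in LEC, in each case by less than 0.3.

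Most 19S subunits lay above 0 in MEC pair 3 and below 0 in MEC pair 2, as many genes of the whole table did, while the 20S core genes were more mixed. In MEC pair 3 the median of the 19S subunits was 0.24 and 14 of 15 lay above 0, against 60.1% of all genes, while the median of the 20S core genes was −0.25 and 8 of 12 lay below 0. In MEC pair 2 the 19S median was −0.11 with 4 of 15 above 0, against 39% of all genes, and the 20S median was −0.021 with 6 of 12 above 0. MEC pair 1 had a 19S median of −0.02 and a 20S median of −0.061. In LEC pairs 1, 2 and 3 the 19S medians were 0.067, 0.067 and −0.044, and the 20S medians −0.017, −0.076 and 0.043. The medians of all genes in these LEC pairs were −0.0045, 0.010 and 0.014. Of 33 members, 23 had opposite signs in MEC pairs 2 and 3, against 73.3% of all genes. Across members the log2 ratios of these pairs had a Pearson correlation of −0.62, against −0.58 across all 10900 genes. In LEC, pairs 2 and 3 gave −0.56 across members, against −0.47 across all genes, with opposite signs in 21 of 33 members and 63.2% of all genes. MEC pair 3 and LEC pair 1 gave 0.62 across members, against 0.54 across all genes, with the same sign in 27 of 33 members and 61.5% of all genes. These are descriptions across genes, which are not independent and share arrays, and turning a pair reverses its correlations. Across members, the ratio in MEC pair 3 also ran with brightness, with a Pearson correlation of −0.45 with log2 intensity, against −0.16 across all genes. This correlation was −0.30 in MEC pair 1 and 0.31 in MEC pair 2, against −0.037 and 0.16 across all genes. In the LEC pairs it ran from −0.19 to −0.070 across members. The 20S genes were brighter, with median log2 intensities of 8.67 to 8.84 in the MEC pairs, against 7.47 to 7.56 for the 19S subunits. The part of brightness in these values was not tested.

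**Figure D2:**
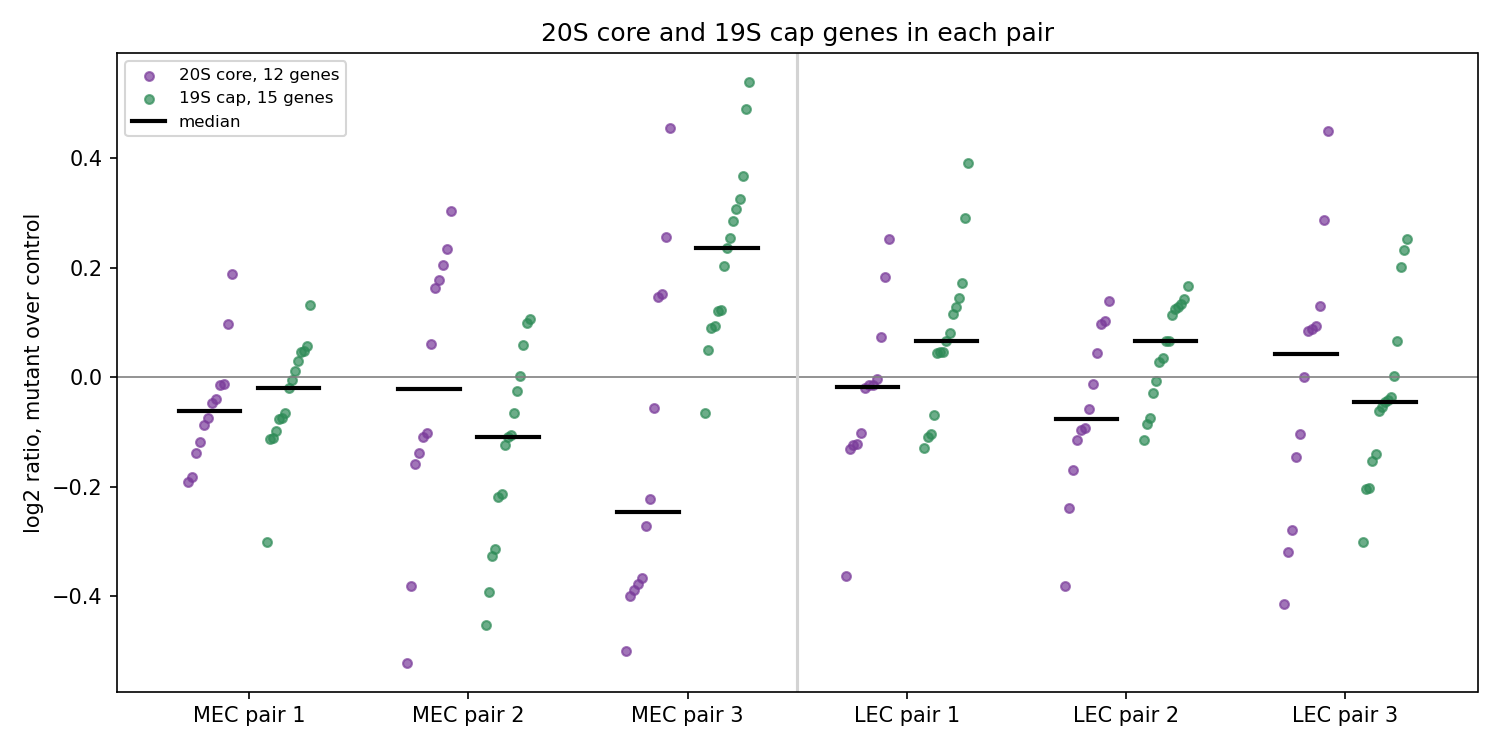
Log2 ratio of mutant over control (vertical axis) for the 12 genes of the 20S core and the 15 of the 19S cap in each of the 6 pairs; points are genes, sorted by value, and bars are medians. In MEC pair 3 the 19S median is 0.24 and the 20S median −0.25, and in MEC pair 2 the 19S median is −0.11.

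With replicate 2 of both regions turned as labelled, the 20S and 19S counts changed. Below 0 were then 7 of 12 core genes in MEC and 5 of 12 in LEC, with medians of −0.093 and 0.033. Above 0 were 14 of 15 cap subunits in MEC and 8 of 15 in LEC, with medians of 0.11 and 0.00047. Members at an unadjusted p under 0.05 were then 4 of 33 in MEC, 2 in LEC, 6 in the average and 1 in the difference, against 11.2%, 9.88%, 12% and 9.01% of 11096 genes, and again 0 were called in any of these. The 6 members in the average were Psma2, Psmb2, Psmb3 and Psme2 with negative effects, from −0.20 to −0.13, and Psmb1 (0.13) and Psme3 (0.099) with positive ones. A second, dimmer probe of Psmb3 had −0.13, 0.042 and 0.14 in MEC and 0.022, −0.14 and 0.13 in LEC. With replicate 2 turned, this probe had both signs in MEC and lay above 0 in every LEC pair. The dimmer probe of Psme2 then had both signs in MEC and lay below 0 in every LEC pair.

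Beside these values, the summed level of microglial markers did not overlap between genotypes in either region. Of 13 such genes 10 were measured, 8 had a positive effect in each region, 0 passed the adjusted threshold in limma (unadjusted p under 0.05 in 3 for MEC and 5 for LEC), and their medians were 0.12 in MEC and 0.12 in LEC. Their summed linear level was 1379 to 1678 in mutant MEC and 965 to 1037 in control MEC, and 1170 to 1803 in mutant LEC and 874 to 1056 in control LEC. Much of this came from Lyz2, a lysozyme gene of macrophages, with an averaged effect of 1.78 on the log2 scale; without it the sums were 1046 to 1116 in mutant MEC and 869 to 883 in control MEC, and 882 to 1238 in mutant LEC and 781 to 873 in control LEC. The sums of all 10 genes overlapped with replicate 2 turned, at 965 to 1678 in mutant MEC and 1025 to 1379 in control MEC, and 940 to 1474 in mutant LEC and 874 to 1803 in control LEC. In bulk samples, fewer cells of a type and less RNA per cell cannot be told apart. The immunoproteasome's partners in antigen presentation were measured in 4 of 10 cases. H2-K1, a class I heavy chain, had an effect of 0.26 in MEC and 0.41 in LEC (limma unadjusted p = 0.00283 in LEC, adjusted p = 1), B2m, its light chain, 0.12 and 0.14, and Tapbp, which loads peptides, −0.13 and −0.037. The ratios of H2-K1 were 0.47, 0.15 and 0.15 in the MEC pairs and 0.29, 0.57 and 0.37 in the LEC pairs. Turning replicate 2 as labelled reverses the second ratio of each region and so lowers both effects of H2-K1. The part of microglial RNA in the ratios of Psmb10, Psme1 and Psme2 was not tested.

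More proteasome genes passed the test between regions than between genotypes, as held for all genes (25.7% against 0%). Most directions of the members rest on how the arrays were scaled. Levels here are log2 intensities, averaged over the dyes of a pair after quantile normalisation of the arrays. Of 33 members 12 passed the adjusted threshold, against 25.7% of all genes; 10 were higher in MEC and 2 lower, against 11.6% and 14.1% of all genes. The pairs of MEC and LEC did not overlap for 16 of 33 members, against 43.9% of all genes, and 16 of 33 had an unadjusted p under 0.05, against 38%. The median difference was 0.016 over members and −0.017 over all genes. Every MEC array was scanned on 1 day and every LEC array on another, so region and scan day cannot be told apart.

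**Figure D3:**
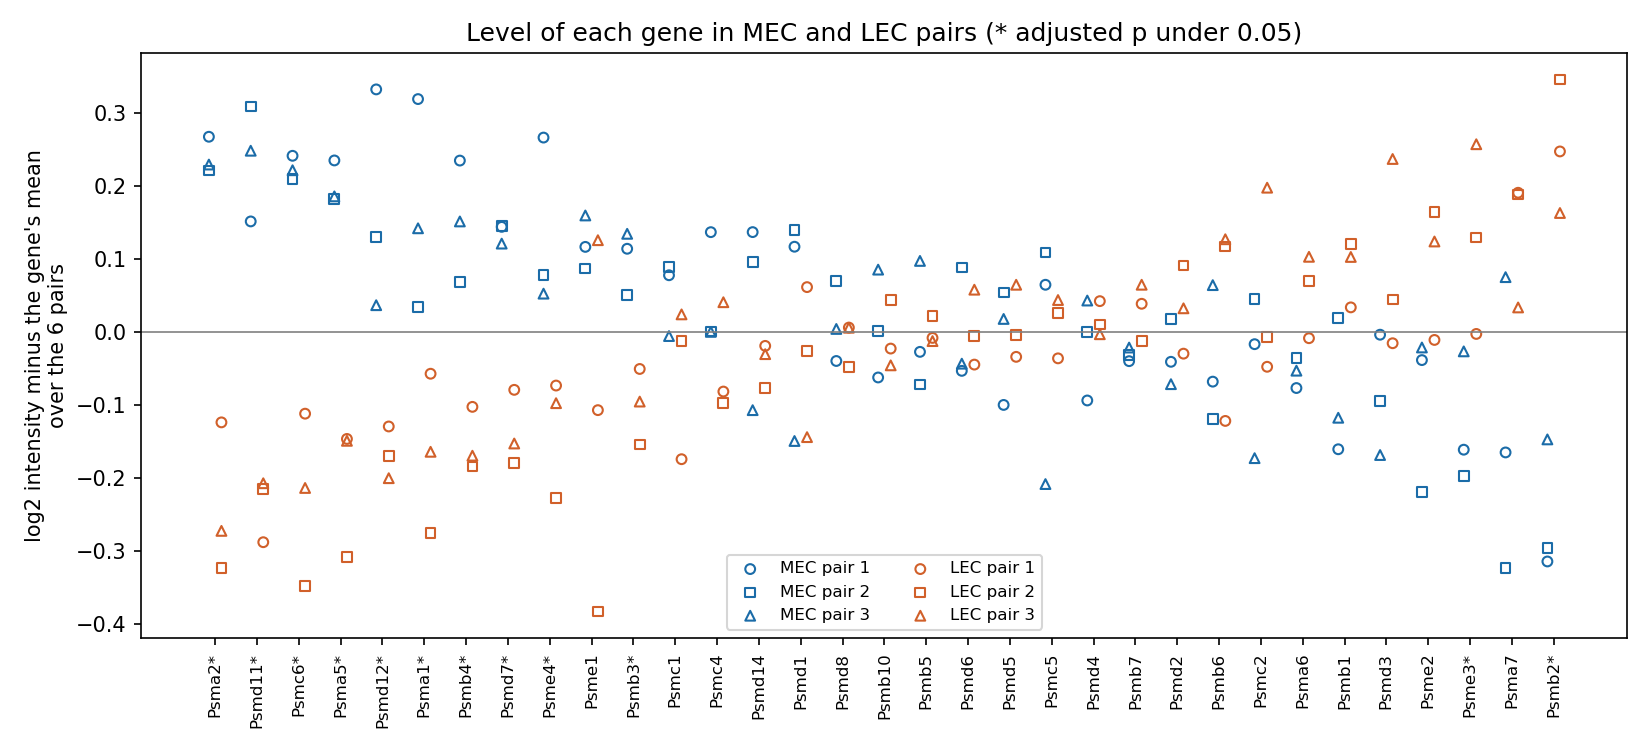
Log2 intensity of each measured proteasome gene in the 3 MEC pairs (blue) and the 3 LEC pairs (orange), minus the gene's mean over the 6 pairs, with genes ordered by MEC minus LEC. Genes with an asterisk passed the adjusted threshold; Psma2 stands at the left end and Psmb2 at the right under this quantile scaling, and 8 of the 10 genes marked as higher in MEC crossed 0 when arrays were centred on all spots.

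Psmb2 and Psme3 were lower in MEC under each of the 3 array scalings tried. Psmb2 had log2 intensities of 6.37, 6.39 and 6.54 in MEC, against 6.94, 7.03 and 6.85 in LEC, a difference of −0.50 ± 0.067 (SE; limma adjusted p = 0.00241). Psme3 had 7.41, 7.38 and 7.55 in MEC, against 7.57, 7.70 and 7.83 in LEC, a difference of −0.26 ± 0.077 (SE; adjusted p = 0.0424). For both genes the regions did not overlap. The call of Psme3 was lost with Agilent processed signals, with Cy3 readings only and with no filter, where limma adjusted p was 0.071, 0.0538 and 0.0639. It was also lost without MEC pair 1 or 2 or LEC pair 2 or 3 (limma adjusted p = 0.126, 0.132, 0.105 and 0.0963), and over all alternatives the adjusted p ran from 0.000611 to 0.26. Psmb1, a beta subunit, had 6.00, 6.18 and 6.04 in MEC, against 6.19, 6.28 and 6.26 in LEC, and its difference of −0.17 ± 0.059 (SE) did not pass the threshold (adjusted p = 0.0691).

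The 10 members higher in MEC under quantile normalisation, 8 of which turned under another scaling, came from each large subcomplex: Psma1, Psma2, Psma5, Psmb3 and Psmb4 of the 20S core, Psmc6, Psmd7, Psmd11 and Psmd12 of the 19S cap, and the activator Psme4. Psmd11, a scaffold of the lid, had log2 intensities of 7.47, 7.63 and 7.57 in MEC, against 7.03, 7.11 and 7.11 in LEC, a difference of 0.47 ± 0.056 (SE; limma adjusted p = 0.0016). Psma2 had 10.78, 10.73 and 10.74 in MEC, against 10.39, 10.19 and 10.24 in LEC, a difference of 0.48 ± 0.06 (SE; adjusted p = 0.00196). Psmc6, an ATPase, had 7.59, 7.56 and 7.57 in MEC, against 7.24, 7.001 and 7.14 in LEC, a difference of 0.45 ± 0.064 (SE; adjusted p = 0.0029). In each of these genes the regions stood apart by more than either region's spread. Psma5 had 9.77, 9.71 and 9.72 in MEC, against 9.39, 9.22 and 9.38 in LEC, a difference of 0.40 ± 0.057 (SE; adjusted p = 0.0029). Psmb4 had 9.51, 9.34 and 9.42 in MEC, against 9.17, 9.09 and 9.10 in LEC, a difference of 0.30 ± 0.056 (SE; adjusted p = 0.00738). The LEC pairs of Psmb4 lay within 0.1 of each other, and none reached a MEC pair.

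The other 5 had smaller or more scattered differences. Psmd12 had 9.06, 8.85 and 8.76 in MEC, against 8.60, 8.55 and 8.52 in LEC (difference 0.33 ± 0.076, SE; limma adjusted p = 0.0154). Psma1 had 9.002, 8.72 and 8.83 in MEC, against 8.63, 8.41 and 8.52 in LEC (difference 0.33 ± 0.084, SE; adjusted p = 0.0238). MEC pair 1 was the highest in both genes. Psmd7, the lid subunit that pairs with Psmd14, had 7.62, 7.62 and 7.59 in MEC, against 7.39, 7.29 and 7.32 in LEC (difference 0.27 ± 0.047, SE; adjusted p = 0.00547). Psme4 had 7.05, 6.86 and 6.84 in MEC, against 6.71, 6.56 and 6.69 in LEC (difference 0.27 ± 0.072, SE; adjusted p = 0.0296). Psmb3, a beta subunit, had 10.11, 10.05 and 10.13 in MEC, against 9.95, 9.85 and 9.90 in LEC, the smallest called difference at 0.20 ± 0.05 (SE; adjusted p = 0.0219). Further probes of 4 of these genes differed less, by 0.31 for Psmc6, 0.041 for Psmd12, 0.019 for Psmb3 and 0.013 for Psmd7.

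These directions changed with the scaling for 8 of the 10 genes. When arrays were centred on the median of all spots in place of quantile normalisation, the median difference over all genes moved to −0.19. The difference was then still above 0 in Psmd11 (0.06) and Psmc6 (0.027) alone, and it ran from −0.39 to −0.04 in the 8 others. Relative to the median of all genes, 6 of the 10 remained higher in MEC under that scaling: Psmd11 by 0.25, Psmc6 by 0.22, Psme4 by 0.15, and Psma2, Psmd7 and Psma5 by 0.038 or less. When arrays were centred on the median of the measured probes, a choice made after seeing the data, Psmd11 stood at 0.25 and Psmc6 at 0.22. Of the 12 called genes, 3 were called in the same direction there: Psmd11, Psmb2 and Psme3. Psma1, Psmb3, Psmb4 and Psmd12 were then below 0, from −0.19 to −0.033.

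**Figure D4:**
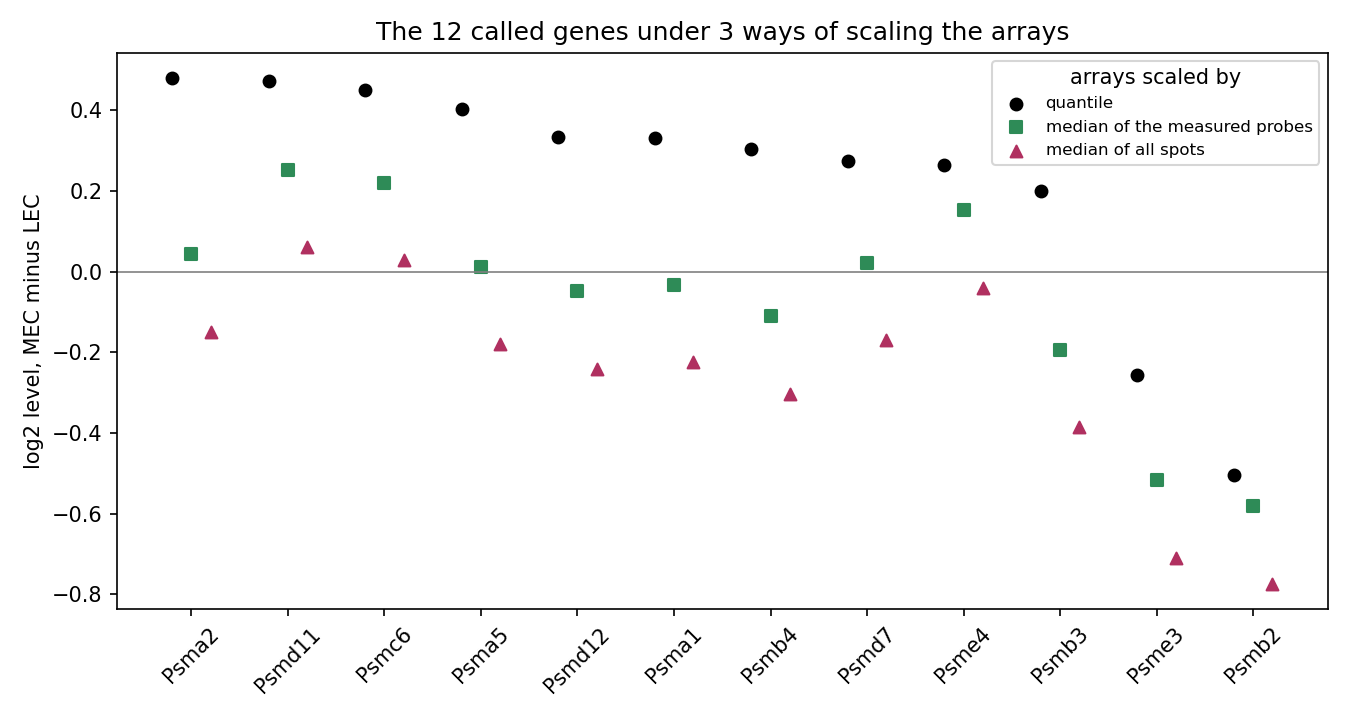
Difference in log2 level, MEC minus LEC (vertical axis), of the 12 called proteasome genes with the arrays scaled by quantile normalisation, by the median of the measured probes and by the median of all spots. Psmd11 and Psmc6 stay above 0 and Psmb2 and Psme3 below 0 under all 3, while the 8 others cross 0.

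The other members did not pass the threshold between regions. Psme1 had 7.47, 7.44 and 7.51 in MEC, against 7.24, 6.97 and 7.48 in LEC, and its difference of 0.24 ± 0.11 (SE) did not pass the threshold (limma adjusted p = 0.156). Psme2 had 8.35, 8.17 and 8.37 in MEC, against 8.38, 8.55 and 8.51 in LEC, with a difference of −0.19 ± 0.071 (SE; adjusted p = 0.0958). Psmb10 had 7.85, 7.91 and 7.995 in MEC, against 7.89, 7.95 and 7.86 in LEC, a difference of 0.016 ± 0.055 (SE). The proteolytic subunits Psmb5, Psmb6 and Psmb7 had differences of −0.00095, −0.082 and −0.061. Markers of other cells also differed between regions: of 7 oligodendrocyte genes 5 were measured, and 3 were called higher and 1 lower in MEC under quantile normalisation, with a median of 0.41. Their summed linear level was 1064 to 1410 in mutant MEC and 909 to 1480 in control MEC, and 734 to 930 in mutant LEC and 787 to 865 in control LEC. Of 6 inhibitory neuron genes 3 were called higher and 1 lower in MEC, with the same normalisation. The part of cell makeup in the regional levels was not tested.

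Other genes of the pathway were described from a list of 35, of which 27 were measured. Between mutant and control 0 were called in MEC, in LEC or in the average, and medians were 0.0049 in MEC and 0.045 in LEC. Averaged effects were 0.12 for the shuttle factor Ubqln1 and 0.11 for Fbxo7. They were −0.18 for Pomp, the chaperone of core assembly, −0.085 for the shuttle factor Rad23b and −0.069 for the cap's ubiquitin receptor Adrm1. Pomp had −0.19, −0.29 and −0.051 in MEC and −0.10, 0.15 and −0.58 in LEC, below 0 in 5 of 6 pairs. Between regions 8 of 27 were called, 6 higher and 2 lower in MEC under quantile normalisation, against 25.7% of all genes. Among them Nfe2l1, the factor that raises proteasome genes when the proteasome is blocked, differed by 0.32 ± 0.063 under that scaling (SE; limma adjusted p = 0.00932).

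By position, the Psmb4 probe used lies at chr3:94969808-94970097, the Psma2 probe at chr13:14417588-14417647, the Psmd11 probe at chr11:80287965-80288024 and the Psmb2 probe at chr4:126186516-126189359, in build mm8 as the scanner files give it. Which exon or untranslated region each probe matches was not looked up here, since no annotation of that build was used.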

How the data were processed

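RNA of 500 laser-captured neurons per region was amplified and hybridised by the authors, per the labels' protocols. The deposited scanner files hold raw intensity per spot and dye, flags, and Agilent's processed signals, made with Feature Extraction 9.5.1.1 per the file headers (8.5.1.1 per the submitters' processing notes). The authors' deposited value table holds log2 ratios per array, with centring and direction unstated.

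In R 4.3.3 with limma 3.58.1, intensities were corrected by normexp (offset 50), dyes balanced by loess, and log2 ratios of mutant over control averaged first over spots, then over both arrays of each pair. The filter kept 12987 probes that cleared background in 4 or more of 6 readings for some region and genotype, and the brightest probe stood for a gene. Limma fitted a mean per region over 6 pairs. Its p-values are two-sided and adjusted by Benjamini-Hochberg, with a threshold of 0.05. The fit was tested on simulated data. Array assignment and direction follow the value table; 5 of 6 LEC files lay under another LEC sample's name.

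Genes named in full were those past the threshold, the 3 of smallest p in each direction of each comparison (of the averaged effect for the pathway list), and all immunoproteasome and PA28 genes. Other members are given by range and count, and a few were added after their values were seen (Psmb5, Psmb6, Psmb7, H2-K1, Nfe2l1). A few genes of the pathway and marker lists, 1 of them chosen by this rule, are not reported here. Members and lists were chosen with earlier results of these data known. The number of arrays limits the precision. Alternatives covered direction, assignment, background, dye and array scaling, filters, probes and leaving out pairs.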

Additional observations from a re-analysis of the deposited data

How the results depend on the processing

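Between mutant and control, 0 members were called under every alternative. The whole table gave 0 to 1 called genes in MEC and 0 to 1 in the average when single pairs were left out (1 without LEC replicate 2), and 1 in the average under a filter of 6 of 6 readings in each region and genotype, which was added after seeing the data. The LEC median of members was 0.067 with dyes only median-centred (0.033 over all genes), 0.034 without replicate 2 of both regions, and −0.011 to 0.034 with single pairs left out. Effects turned with dyes only median-centred for Psma2 (0.092), Psmb10 (0.079) and Psme2 (0.11) in MEC, for Psmb4 (0.0093), Psmb10 (0.0055) and Psme2 (0.094) in the average, and for Psme2 in the difference (0.038). With replicate 2 turned as labelled they did for Psmb10 (0.065) and Psme2 (−0.084) in LEC, Psmb4 (0.023) and Psmb10 (0.0029) in the average, and Psmb10 in the difference (−0.12). With files and dyes as labelled they did for Psmb2 in LEC (0.079), Psme4 in the average (−0.0049), and Psmb4 (0.035) and Psmd5 (0.029) in the difference. Psme2 in LEC was −0.017 in the authors' value table, −0.010 with the median of probes and −0.061 without replicate 2 of both regions, which put Psmb10 at −0.045 in the difference.

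With single pairs left out, these effects changed sign. In MEC they were Psmc2 (−0.050 to 0.26) and Psme2 (−0.21 to 0.044), in LEC Psme2 (−0.061 to 0.085), in the average Psme2 (−0.10 to 0.023), and in the difference Psmc1 (−0.011 to 0.19), Psme2 (−0.21 to 0.041) and Psmb10 (−0.018 to 0.13). Turning replicate 2 and leaving out MEC replicate 3 together, a setting chosen after seeing the data, gave Psmd12 −0.0052, Psmd14 −0.030, Psmc2 −0.026 and Psmb4 0.10 in MEC, Psmb10 0.065 and Psme2 −0.084 in LEC, Psme4 −0.0033, Psmb4 0.077 and Psmb10 0.024 in the average, and Psmd12 −0.068, Psmb10 −0.082 and Psmb4 0.046 in the difference. The cause was not tested.

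For levels in MEC and LEC, 12 members and 2801 genes were called; there were 5 and 713 without replicate 2 of both regions, 5 and 539 with control channels only, and 3 and 410 with mutant channels only, where fewer values enter. Genes called numbered 5887 with arrays centred on the median of all spots, 4319 on that of the measured probes, and 1722 to 2589 with single pairs left out (1722 without MEC replicate 1, 1802 without LEC replicate 2). Centring on all spots gave a member median of −0.24 and turned Psma1 (−0.23), Psma2 (−0.15), Psma5 (−0.18), Psmb3 (−0.39), Psmb4 (−0.30), Psmb10 (−0.48), Psmd7 (−0.17), Psmd12 (−0.24), Psme1 (−0.19) and Psme4 (−0.040). Centring on the measured probes turned Psma1 (−0.033), Psmb3 (−0.19), Psmb4 (−0.11), Psmb10 (−0.29) and Psmd12 (−0.048). Psmb10 was −0.016 with control channels only and −0.022 to 0.052 with single pairs left out. In the direction of the value table, same-numbered pairs of MEC and LEC did not vary together. Across all genes their ratios, as deviations from the region's mean, had correlations of −0.18, −0.00078 and −0.36 (0.13, −0.13 and −0.15 without that centring). Numbers were therefore not taken to pair samples. On the same measure, differently numbered pairs ran from −0.38 (MEC 2 with LEC 1) to 0.44 (MEC 3 with LEC 1). The check does not show whether MEC and LEC pairs share mice, and the averaged effect treats all 6 pairs as independent. A replicate block changed no count of members called (12 for levels, 0 for the average and 0 for the difference), with 2402 genes called for levels. Slide or scan day as a block was not run, since each array is its own slide and each day holds 1 region. Brightness near background limits Psma6 and Psmb7, with mean log2 intensities of 6.12 and 6.06. It also limits Psmd4 (6.11), Psmb1 (6.16), Psmd8 (6.18), Psmd5 (6.24) and Psmd6 (6.29). Member probes that missed the filter had mean log2 intensities of 5.76 to 6.04.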

Other observations

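Some proteasome genes stand on the array under older names and so fall outside the rule. The core assembly factors Psmg1, Psmg2 and Psmg3 had mean log2 ratios of mutant over control of −0.062, 0.039 and −0.15 in MEC, against 0.025, 0.053 and −0.16 in LEC. A probe named for Psmb11, known as the thymus-specific beta subunit, had ratios of 0.083 in MEC and 0.28 in LEC and a level 0.80 higher in MEC than in LEC on the log2 scale under quantile normalisation. Its name comes from an update of an older clone name, and a second probe was above background in 3 of 24 readings.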
